A study of Homo sapiens with 16 samples.

Results

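The chemokine ligands were taken as all gene columns named Ccl or Cxcl followed by a number and at most 1 letter, plus Xcl1, Cx3cl1, Pf4 and Ppbp, which gave 40 genes of 32285. They were measured by single-cell RNA-seq of mouse mammary tumors in 16 pools, each a droplet capture of hashtagged tumors. T22 and T127 are mammary tumor lines kept by transplantation. The mice they came from carried a transgene for an LPA receptor, active in the breast epithelium. Both lines carry wild-type BRCA1 and BRCA2, T22 responds to the PARP inhibitor olaparib and T127 is resistant. Chunks of these tumors were grown in the mammary fat pad of 6-week-old female FVB mice, which have an intact immune system. The sample records name the organism as human, but the gene symbols are of mouse. The long-term experiment (8 pools) mixed T22 and T127 tumors, grown alone or with the other line in the opposite fat pad, from mice given vehicle or olaparib at 50 mg/kg by mouth each day for 20 days. The short-term experiments held T22 tumors only (4 pools) or T127 tumors only (4 pools), from mice given vehicle or the same dose for 4 or 8 days. All T22 tumors were transplanted passages of 1 line and all T127 tumors of another, so T22 and T127 each stand for 1 tumor. The hashtag assignments were not used here, so no level below compares olaparib with vehicle, and each pool is a mixture of both.

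Chemokines are small secreted proteins that set up gradients followed by leukocytes carrying the matching G protein-coupled receptors. Cxcl1, Cxcl2, Cxcl3, Cxcl5 and Ppbp draw neutrophils through Cxcr2, Ccl2, Ccl7 and Ccl12 draw monocytes through Ccr2, and Cxcl9 and Cxcl10 draw activated T and NK cells through Cxcr3. Others act on dendritic cells (Xcl1 through Xcr1), regulatory and Th2-type T cells (Ccl17 and Ccl22 through Ccr4) or eosinophils (Ccl11 and Ccl24 through Ccr3), and in breast tumors malignant cells, fibroblasts, endothelial cells and macrophages are all known sources.

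Levels were computed for each of the study's 22 cell clusters as UMIs of the gene per 1000000 UMIs of the cluster (CPM), where a UMI marks 1 captured RNA molecule. The chemistry reads transcripts from their 3′ end, so counts do not scale with transcript length as in full-length libraries, but reads in introns were counted too, and a comparison between genes also depends on gene structure. Each level is given with its range over pools of at least 10 cells. The main source of a ligand was the cluster of at least 50 cells with the highest CPM, and it was called clear when it stood at least 2 times above the next cluster with pool ranges apart. Exact Poisson intervals of levels and exact binomial intervals of ratios and shares cover counting error only, and no p-value was computed, since pools are not replicates of a condition. The study defined the clusters from expression that included the ligands, so levels by cluster are a description.

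The pools held 32298013 to 43985662 UMIs in the long-term set, 40270841 to 42436039 in the T22 set and 49690430 to 55600377 in the T127 set. Median UMIs per cell were 9548.5 to 11720.5, 7730 to 8528 and 22712 to 26017. Long-term pools 1, 2 and 3 shared many cell barcodes (3939 between pools 1 and 2, 987 between 1 and 3, 1082 between 2 and 3, against 1 to 8 for other pairs), and 2774 of 4146 barcodes found in more than 1 pool carried different cluster names. Each such barcode was kept once, at its deepest copy, which left 25723 of 30845 long-term cells. Of the 5122 copies left out, 79.4% were named CD16-CDKN1C. The labels of NK cells, endothelial cells and i_CAF were borne out by Ncr1, Pecam1 and Col1a1 in the clusters large enough to be ranked. The name my_CAF (myofibroblastic) was not: this cluster was set apart by the pericyte gene Rgs5 (4203 CPM long-term and 9746 CPM in T22). It held Col1a1 at 1208 and 1616 CPM in these sets, against 5517 and 13273 CPM in i_CAF. Acta2, the myofibroblast gene, did not set my_CAF apart (7437 CPM against 7275 CPM in Malign_2 long-term, and 3003 against 4685 CPM in T22). In contrast, CD14-IL1B held the highest Xcr1 (186, 575 and 312 CPM in long-term, T22 and T127 cells) and Clec9a, which mark cross-presenting dendritic cells. The cluster named CD14-PF4 did not lead in Pf4. It led in the neutrophil genes S100a8, S100a9, Retnlg and Cxcr2 in both short-term sets, and in Csf3r and Ly6g in T22 only. CD16-CDKN1C led Csf3r and Ly6g in T127, and in the long-term set other clusters led all of these genes. CD14-PF4 also held the mature dendritic cell genes Ccr7 and Fscn1, at 394 and 439 CPM in the long-term set (next to the leading cluster) and at 456 and 432 CPM in T22 (the highest). T127 malignant cells carried the fibroblast gene Dcn (4324 CPM in Malign_1 against 6544 CPM in i_CAF, long-term). For these clusters the study's names are used below as labels only.

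The ligands together took 0.567% of all UMIs in the long-term cells, 0.371% in the T22 cells and 0.228% in the T127 cells. A few genes made up most of this. Cxcl2, Ccl4 and Ccl6 held 50.3% of the long-term ligand UMIs, Ccl4, Cxcl2 and Ccl5 held 55.6% in T22, and Cxcl2, Cxcl1 and Pf4 held 54.0% in T127. By cluster, the summed level was highest in Macro-M2 of the long-term set (13695 CPM, 11646 in the lowest pool) and of the T127 set (14157 CPM), whereas Macro-others (10311 CPM) stood just above Macro-M2 (9975 CPM) in T22. Malignant clusters were at the low end, with 267 CPM in Malign_0 and 495 CPM in Malign_2 of the long-term set, but Malign_1 of the T127 line reached 2037 CPM, of which Cxcl1 was the largest component. No UMI was found in any pool in the columns of 7 of the 40 genes, namely Ccl19, Ccl21a, Ccl21b, Ccl21c, Ccl26, Ccl27a and Ccl27b, which includes every ligand of Ccr7 on the list. An extra column, Ccl27a-2, lies outside the naming rule and did hold UMIs. The other genes reached the 30 UMIs asked for ranking in at least 1 experiment: 33 in the long-term set, 32 in T22, where Cxcl15 was at 0, and 28 in T127, where Ccl1, Ccl20, Ccl28, Cxcl15 and Cxcl17 had 2 to 20 UMIs each.

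**Figure D1:**
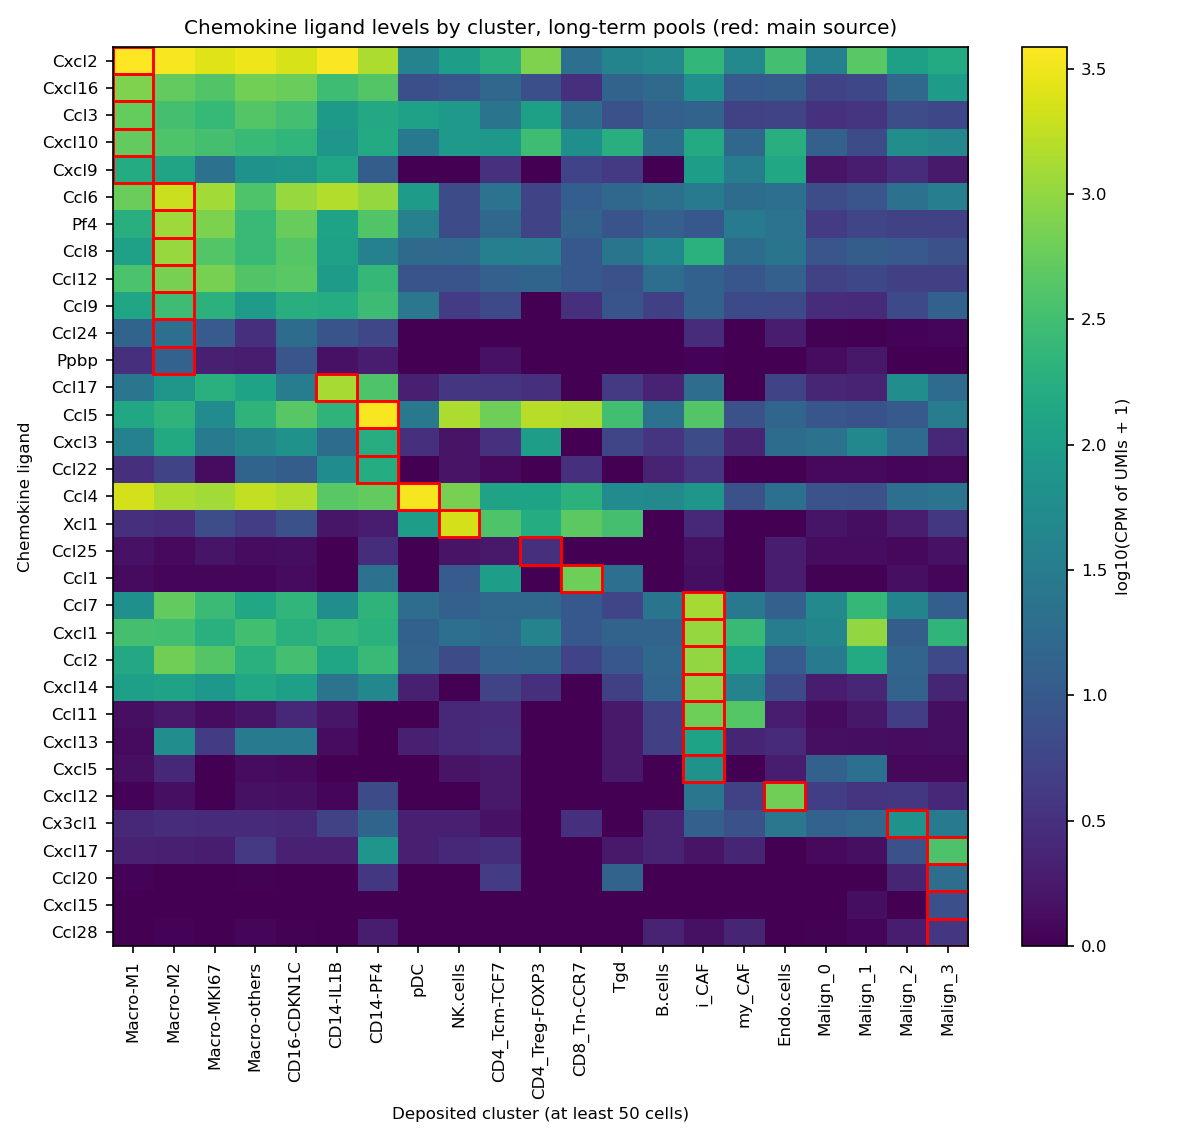
Heatmap of the level of each ranked ligand (rows) in each long-term cluster of at least 50 cells (columns), as log10 of CPM plus 1, with the main source outlined in red. Red boxes gather in the macrophage columns and in i_CAF, with single boxes in NK, endothelial, pDC and T cells and 5 in the malignant columns.

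Mononuclear phagocytes were the main source of 16 of 33 ligands in the long-term set (48.5%, against 12.8% of all 16353 genes ranked the same way), of 15 of 32 in T22 (46.9%, against 20.3%) and of 16 of 28 in T127 (57.1%, against 21.1%). Fibroblasts, here i_CAF with the pericyte-like my_CAF counted in, were the main source of 7, 8 and 6 ligands (21.2%, 25.0% and 21.4%, against 16.0%, 18.5% and 10.2% of all genes). All of these were in i_CAF except Ccl25, led by my_CAF in T22 on 2 UMIs. Malignant clusters led 5 ligands in the long-term set (15.2%, against 27.6%), 4 in T22 (12.5%, against 24.9%) and 0 in T127 (against 20.0%). Clear sources were found for 7, 8 and 6 ligands (21.2%, 25.0% and 21.4%, against 7.98%, 13.3% and 10.7% of all genes). For most ligands, then, the next cluster was close or its pools overlapped those of the leading cluster.

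**Figure D2:**
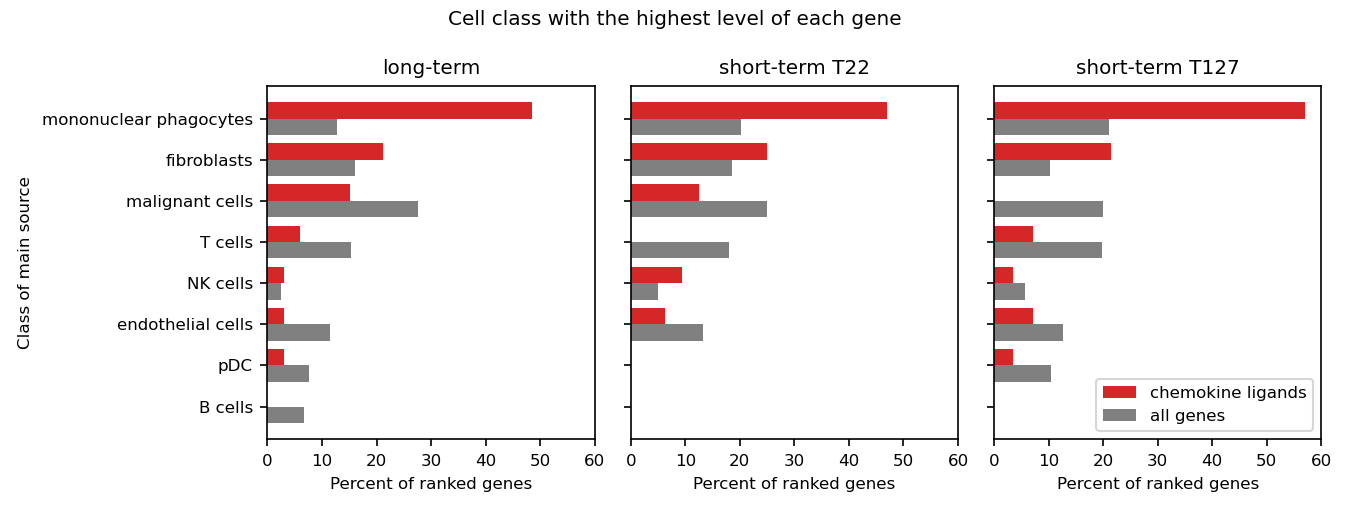
Percent of ranked ligands whose main source lay in each cell class, beside the percent of all ranked genes, for the 3 experiments. Ligand bars exceed the bars of all genes for mononuclear phagocytes and fibroblasts and fall below them for malignant cells in each experiment.

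The main source recurred in part across experiments, which share no pools. It was the same cluster for 16 of 32 ligands between long-term and T22 (50.0%, against 38.3% of all genes), for 15 of 28 between long-term and T127 (53.6%, against 34.7%) and for 14 of 28 between T22 and T127 (50.0%, against 18.8%). It was the same in all 3 for 10 of 28 ligands (35.7%, against 12.6%). These were Xcl1 in NK cells, Ccl7, Ccl11, Cxcl1, Cxcl5 and Cxcl14 in i_CAF, Ccl24 and Pf4 in Macro-M2, Ccl17 in CD14-IL1B, and Cxcl12 in endothelial cells. Some of these leads were slim. Long-term Macro-M2 was the highest in Ccl24 in 2 of 8 pools (1.12 times CD16-CDKN1C), and i_CAF the highest in Cxcl1 in 3 of 8 (1.01 times Malign_1). The long-term set contains tumors of both lines. The clusters large enough to rank also differed between experiments, for the ligands and for all genes. Macro-M1, which led 5 long-term ligands, had 3 cells in T127 and could not lead there. T22 had 35 pDC and 5 CD4_Treg-FOXP3 cells, which were not ranked.

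Among the neutrophil-attracting ligands, Cxcl2 was the most abundant, with its highest levels in mononuclear phagocytes. It stood at 3866 CPM in long-term Macro-M1 (lowest, median and highest pool 2641, 3950 and 4945), next to CD14-IL1B at 3665 CPM. In T22 it stood at 3204 CPM in Macro-others (2918, 3403, 3544 and 2953 by pool) and at 3195 CPM in Macro-M2, and in T127 at 4337 CPM in Macro-M2 (4396, 4243, 4206 and 4491). Thus several of these clusters carried Cxcl2 at levels that did not separate beyond their pool ranges, in T127 as well, where Macro-MKI67 followed at 3561 CPM (3093 to 4478). T127 malignant cells, at 190 CPM, held 26.5% of the Cxcl2 UMIs of their set. Such shares by amount are to be read against the share of all UMIs. Malign_0 and Malign_1 held 94086467 and 81826736 of the 209152008 UMIs of all genes in T127, and 60692267 and 39506280 of 304653242 in the long-term set. Cxcl1, a close relative, was led by i_CAF in each experiment. Its levels there were 1038 CPM long-term (653, 1036 and 1344), 604 CPM in T22 (852, 472, 560 and 546) and 1638 CPM in T127 (1607, 2149, 1206 and 1642). Malign_1 of T127 stood level with i_CAF in the long-term set (1026 CPM, pools 790 to 1274) and followed it in the T127 set (1003 CPM), where this cluster held 84.5% of all Cxcl1 UMIs. The source by level and the source by amount therefore differed for Cxcl1 in T127 tumors. Cxcl5 was also led by i_CAF, at 66.7 CPM long-term (6.51, 50.1 and 206), 6.06 CPM in T22 (4.80, 5.31, 4.17 and 9.92) and 166 CPM in T127 (182, 98.4, 214 and 162). By amount, T127 malignant cells held 65.0% of the long-term and 87.8% of the T127 Cxcl5 UMIs. Cxcl3 was led by CD14-PF4 at 173 CPM long-term, but this cluster was the highest in only 1 of 6 pools and 1 cell held 57% of its Cxcl3 UMIs there. The next cluster, Macro-M2, carried 150 CPM (70.8 to 216 over pools) and was the main source of Cxcl3 in both short-term sets, at 8.68 CPM in T22 (6.05, 1.33, 17.5 and 11.1) and 493 CPM in T127 (370, 429, 585 and 601), where malignant cells held 43.9% of the Cxcl3 UMIs. Ppbp, better known from platelets, was highest in Macro-M2 at 12.6 CPM long-term and 113 CPM in T127 (62.3, 69.6, 163 and 165), and had 2 UMIs in the leading cluster of T22. Cxcl15 was led by Malign_3 at 6.59 CPM (0 to 22.4 over pools).

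Cxcl9 and Cxcl10, the interferon-induced ligands of Cxcr3, had a different leading cluster in each experiment, by small margins. Not all of these clusters could lead in each set, since Macro-M1 had 3 cells in T127 and CD4_Treg-FOXP3 had 5 in T22. Cxcl10 was led by Macro-M1 long-term (522 CPM, pools 373, 513 and 743), by Macro-MKI67 in T22 (457 CPM, with 511, 457, 335 and 516) and by CD4_Treg-FOXP3 in T127 (324 CPM, with 423, 520, 173 and 206). Macro-M2 followed in each, at 391, 344 and 249 CPM, and no source was clear. Cxcl9 was led by Macro-M1 long-term (159 CPM, pools 52.0, 148 and 293, the highest cluster in 3 of 8 pools), with endothelial cells level at 139 CPM (ratio 1.15, interval 0.978 to 1.36), by i_CAF in T22 (347 CPM, with 307, 393, 525 and 152) and by endothelial cells in T127 (238 CPM, with 113, 368, 108 and 357), where 46% of the cluster's Cxcl9 UMIs were in 1 cell. In T22, CD14-PF4 (66 cells) carried Cxcl9 at 344 CPM, with pools from 0 to 1756 CPM. This could not be told from i_CAF (ratio 1.01, interval 0.889 to 1.15), which was the highest cluster in 1 of 4 pools.

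The monocyte attractants Ccl2 and Ccl7 were shared by i_CAF and Macro-M2. Ccl2 stood at 1022 CPM in long-term i_CAF (807, 1059 and 1275) against 653 CPM in Macro-M2 (549 to 807), and at 889 CPM in T22 i_CAF (558, 932, 1001 and 1033) against 401 CPM in Macro-M2. In T127 the order turned, with 1260 CPM in Macro-M2 (943, 1499, 1310 and 1279) and 1144 CPM in i_CAF, levels 1.10 times apart. Ccl7 had a clear source in long-term i_CAF, at 1260 CPM (879 to 1652), with Macro-M2 at 533 CPM (431 to 691). In T22 i_CAF it stood at 307 CPM (192, 400, 317 and 316) and in T127 at 1020 CPM (1020, 1416, 691 and 991). Ccl12, the mouse relative of Ccl2, was carried by macrophages and not by fibroblasts. It led in Macro-M2 at 721 CPM long-term, beside Macro-MKI67 at 705 CPM, and at 173 CPM in T22 (136, 95.6, 235 and 233), and in CD16-CDKN1C at 520 CPM in T127 (812, 409, 541 and 267).

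Among Ccl3, Ccl4, Ccl5, Ccl6 and Ccl9, Ccl4 held the most UMIs in the long-term and T22 sets, and its level was highest in plasmacytoid dendritic cells in the long-term and T127 sets. Plasmacytoid dendritic cells (pDC) led in the long-term set at 3402 CPM (1290, 3587 and 5063), with Macro-M1 next at 2263 CPM (1419 to 2753), and Ccl4 made up 86.3% of all ligand UMIs in this cluster. In T127, pDC were a clear source at 4760 CPM (4775, 3063, 5381 and 5500), 6.31 times CD16-CDKN1C, and 83.8% of them had a Ccl4 UMI. T22 had too few pDC to rank (35 cells, of which 1 pool held at least 10), and these stood at 3525 CPM (interval 3327 to 3731). Among the ranked T22 clusters Macro-others led, at 3339 CPM (3253, 3279, 3290 and 3522). Ccl3, usually made together with Ccl4, was led by Macro-M1 long-term (548 CPM, pools 322, 503 and 687), by Macro-others in T22 (1188 CPM, with 1199, 1193, 1176 and 1186) and by Macro-M2 in T127 (241 CPM, with 191, 341, 242 and 185), where CD4_Treg-FOXP3 stood level at 207 CPM (ratio 1.16, interval 0.966 to 1.41). Ccl5, a product of NK and CD8 T cells, was led by NK cells in T22 at 3581 CPM (3021, 3760, 3703 and 3866), and 84.1% of them carried a UMI against 2.27% of endothelial cells, at median depths of 6543 and 8779.5 UMIs. In the other experiments CD14-PF4 led Ccl5, but unevenly, at 3590 CPM long-term (15.1, 3651 and 4520) and at 2701 CPM in T127, where the pools read 0, 11865, 9.70 and 4318 CPM. Ccl6 and Ccl9, which are rodent genes of myeloid cells, led in Macro-M2 at 2003 CPM (1538, 2039 and 2867) and 301 CPM (213, 284 and 501) long-term, and at 1111 CPM (1063, 1041, 1175 and 1175) and 1165 CPM (1102, 1112, 1246 and 1211) in T127. In T22 they led in CD14-PF4, at 527 CPM for Ccl6 (551, 637, 429 and 506) and 340 CPM for Ccl9 (187, 285, 375 and 449), with Macro-M2 next. The long-term lead of Macro-M2 in Ccl9 was not resolved from CD14-PF4 (287 CPM, ratio 1.05, interval 0.934 to 1.18), and Macro-M2 stayed the source in 9 of 15 settings.

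Ccl11 (eotaxin), an eosinophil attractant, was led by i_CAF in all 3 experiments. It stood at 616 CPM in long-term i_CAF (459, 625 and 859) against 432 CPM in my_CAF. In T22 it stood at 355 CPM in i_CAF (421, 402, 310 and 297) against 90.3 CPM in my_CAF, and in T127 at 425 CPM in i_CAF (423, 520, 350 and 416). The T127 level was 120 times the next ranked cluster, endothelial cells (interval 46.8 to 442), but my_CAF had only 8 cells there and was not ranked. Ccl8 was led by Macro-M2 long-term (1079 CPM, pools 536, 1019 and 1649) and by CD16-CDKN1C in T22 (61.6 CPM, with 71.0, 72.7, 41.7 and 64.3) and in T127 (495 CPM, with 760, 321, 406 and 517), where the source was clear. CD16-CDKN1C had a median depth of 2407 UMIs in T22, well below most clusters. Ccl24 was low in Macro-M2, at 19.3, 5.71 and 35.2 CPM, and in T22 15 of 670 cells had a UMI, with 36.5% of the UMIs in 1 cell. Ccl1, a ligand of Ccr8, led in CD8_Tn-CCR7 long-term, but 99.6% of its UMIs in that cluster were in 1 of 81 cells. In T22 NK cells led Ccl1 at 89.7 CPM (155, 49.4, 86.4 and 65.6), with a UMI in 4.27% of them and 25.7% of their UMIs in 1 cell. CD4_Tcm-TCF7 followed at 58.0 CPM and held the most Ccl1 UMIs (45.3%). Tprf-MKI67 had the highest share of cells with a UMI (6.22%).

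Ccl17 and Ccl22, both ligands of Ccr4, had different leading clusters in the long-term set and the same one in the short-term sets. No source of Ccl22 was clear. Ccl17 was led by CD14-IL1B in each experiment: clearly so long-term (1325 CPM, pools 987, 1389 and 1739, 3.39 times CD14-PF4), at 183 CPM in T22 (394, 23.4, 137 and 199), where 12 of 143 cells had a UMI and 1 cell held 50.4% of the UMIs, and at 1514 CPM in T127 (923, 1557, 968 and 2429), where Macro-others stood close at 1424 CPM. Ccl22 was led by CD14-PF4 long-term (165 CPM, pools 0, 122 and 511, the highest in 2 of 6), with CD14-IL1B next at 54.9 CPM (0 to 214). CD14-IL1B led it in T22 (323 CPM, with 656, 112, 168 and 393), 1.22 times CD14-PF4, and in T127 (566 CPM, with 97.0, 713, 475 and 934). It was the highest cluster in 2 of 4 pools of each short-term set. Pools differed by several fold for both genes in the short-term sets.

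Because the label checks had found dendritic cell genes in these clusters, the myeloid cells were also divided by 4 genes of mature, migrating dendritic cells (Ccr7, Fscn1, Cacnb3 and Socs2), counting a cell as passing with a UMI of at least 2. Of 15621 long-term cells in the mononuclear phagocyte clusters and pDC, 184 passed (1.18%, holding 1.57% of the UMIs), as did 92 of 7896 in T22 and 56 of 2336 in T127. These few cells held 81.1% of the Ccl22 UMIs found in those clusters in the long-term set (70.5 to 89.4% over pools), 69.8% in T22 (49.9 to 85.8%) and 89.6% in T127 (73.8 to 96.1%). Ccl22 stood at 589 CPM in passing cells against 2.20 CPM in the rest long-term, at 1244 against 10.2 CPM in T22, and at 4102 against 10.6 CPM in T127. Of the Ccl5 UMIs in these clusters, 41.1%, 48.9% and 67.4% were in passing cells, although in T22 NK and T cells held 43.5% and 41.4% of all Ccl5 UMIs. Of the Ccl17 UMIs in these clusters, 7.57% were in passing cells long-term (656 against 128 CPM in the rest), 50.9% in T22 (689 against 12.6 CPM) and 5.06% in T127 (1379 against 576 CPM), and malignant cells held 46.3% of all Ccl17 UMIs in T22. The passing cells held 1.57%, 1.87% and 2.18% of all UMIs of these clusters, and their shares were 1.57%, 3.06% and 5.39% for Cxcl16 and 3.42%, 6.20% and 3.01% for Cxcl9. The Cxcl9 share was unstable: long-term it was 0 to 16.5% over pools, 0.765% with 3 genes asked and 0.745% with each cell thinned to 2000 UMIs, and in T22 it was 1.68% when thinned. The passing cells were spread over clusters, with 54 in Macro-others, 49 in CD16-CDKN1C, 27 in Macro-M2, 25 in CD14-IL1B and 21 in CD14-PF4 of the long-term set, where they made up 21.4% of CD14-PF4. The class is a range and not a type: 73 long-term cells passed with exactly 2 genes and 1250 had 1. With 3 genes asked, the T22 shares were 45.1% for Ccl22 and 16.8% for Ccl17, the long-term share of Ccl17 was 3.94%, and Ccl22 in long-term passing cells stood at 1396 CPM. With 2 genes asked after thinning each cell to 2000 UMIs, the Ccl17 share was 30.3% in T22 and 4.93% long-term, and long-term Ccl22 stood at 1505 CPM.

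Cxcl12, the ligand of Cxcr4 that retains leukocytes and stem cells in tissues, was led by endothelial cells. It stood at 637 CPM in long-term endothelial cells (259, 522 and 1487), 25.9 times i_CAF (interval 22.4 to 29.9), at 379 CPM in T22 (156, 853, 313 and 260) and at 123 CPM in T127 (46.5, 157, 116 and 197). Cxcl12 was clear in the first 2 sets and not in T127, where i_CAF followed at 36.3 CPM and 1 cell held 38.8% of the endothelial UMIs. T127 malignant cells held 80.7% of all Cxcl12 UMIs at only 4.99 CPM. Malign_0 and Malign_1 held 94086467 and 81826736 of the 209152008 UMIs of all genes in that set. Cxcl16, a transmembrane ligand of Cxcr6, was led by mononuclear phagocytes. Long-term Macro-M1 held 783 CPM (707, 760 and 880) with a UMI in 96.5% of cells, against 1.23% of CD8_Tn-CCR7 cells, at median depths of 11639 and 5232 UMIs, and the share in Macro-M1 was 75.2% after thinning to 2000 UMIs. T22 Macro-others held 861 CPM (851, 837, 908 and 852) and T127 CD16-CDKN1C held 515 CPM (498, 476, 553 and 520), with a UMI in 59.95% of cells at a median depth of 4922 UMIs and in 47.5% after thinning, and Macro-others stood level with it (479 CPM, ratio 1.08, interval 0.991 to 1.17). Cxcl13, which guides B cells through Cxcr5, was led by i_CAF long-term (119 CPM, pools 8.70, 124 and 232), with Macro-M2 at 56.0 CPM, and by CD16-CDKN1C in the short-term sets, at 13.2 CPM in T22 (4.94, 6.63, 4.24 and 37.7) and 335 CPM in T127 (445, 56.8, 307 and 561). In T22 only 13 of 4205 CD16-CDKN1C cells had a Cxcl13 UMI, and 1 of them held 60.1% of the UMIs.

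Xcl1, the ligand by which NK cells recruit Xcr1-bearing dendritic cells, had the same clear source in all 3 experiments. NK cells held 2298 CPM long-term (1418, 2465 and 3289), 1906 CPM in T22 (1891, 1779, 1837 and 2091) and 1487 CPM in T127 (1155, 1189, 1336 and 2124), between 2.60 and 4.78 times the next T-cell cluster. Xcl1 had a UMI in 77.2% of long-term NK cells and in 0 of 309 B cells (exact upper limit 1.19%), at median depths of 5248 and 2082 UMIs, and the NK share was 66.8% after thinning. Xcl1 alone made up 47.9% of the ligand UMIs of these NK cells. Cx3cl1 (fractalkine), a membrane-anchored ligand, was instead malignant: it was led by Malign_2 with a clear source long-term (66.2 CPM, pools 58.0, 67.4 and 73.6) and at 89.6 CPM in T22 (86.5, 88.0, 95.1 and 89.3). In T127, i_CAF led Cx3cl1 at 41.5 CPM (21.8, 47.1, 49.8 and 48.5) with Malign_1 at 30.3 CPM. By amount, 95.4% of the UMIs were in malignant cells, which also held most UMIs of all genes in that set.

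Cxcl14, a ligand without an agreed receptor, was a clear i_CAF gene in each experiment, at 915 CPM long-term (389, 878 and 1864), 1147 CPM in T22 (951, 1204, 1077 and 1346) and 1617 CPM in T127 (1238, 1536, 1716 and 2028), which is 6.82, 7.81 and 31.4 times the next cluster. Cxcl17, a mucosal chemokine, was a clear gene of Malign_3, at 389 CPM long-term (338, 391 and 423) and 430 CPM in T22 (398, 423, 480 and 438), with a UMI in 93.5% and 96.3% of these cells. Long-term CD4_Treg-FOXP3 cells had a Cxcl17 UMI in 0 of 113 cells (exact upper limit 3.21%), at a median depth of 3287 against 15056 UMIs in Malign_3. Pf4, like Ppbp a gene of platelet granules, was led by Macro-M2 in each experiment, at 1139 CPM long-term (855, 1105 and 1568), 135 CPM in T22 (128.0, 61.5, 127.3 and 217) and 1942 CPM in T127 (1641, 2072, 1868 and 2166). No source of Pf4 was clear, and in T22 CD16-CDKN1C stood level with Macro-M2 (ratio 1.07, interval 1.00 to 1.15). The platelet genes Gp9, Itga2b and Gp1ba summed to 0.365, 0.110 and 0.633 CPM in those cells, with 1, 2 and 1 of the 3 at 0. The remaining ligands were scarce. Ccl20 and Ccl28 were led by Malign_3 (18.0 and 2.72 CPM long-term, 3.62 and 7.63 CPM in T22). Ccl20 was not beyond counting error over the next cluster in either set (long-term interval of the ratio 0.859 to 2.44). Nor was Ccl28 in the long-term set (ratio to my_CAF 2.02, interval 0.344 to 81.7). Ccl25 stayed at 1.13 to 2.19 CPM in any leading cluster, on 1 or 2 cells.

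Malignant cells of the lines were then compared, since the 4 malignant clusters split by line: the T22 pools held Malign_2 and Malign_3 and the T127 pools Malign_0 and Malign_1. A ligand was called when its levels differed at least 2-fold with pool ranges apart. In the long-term pools, each of which held both lines, 8 of 31 ligands tested were higher in T22 cells (against 21.2% of all 14310 genes tested) and 3 were higher in T127 cells (against 17.4%). The median log2 ratio (of CPM plus 1) was 0.81 over the ligands and 0.05 over all genes. Cxcl17 stood at 160 CPM in T22 cells (128, 158 and 206 over pools) against 0.309 CPM in T127 cells, 518 times lower (interval 364 to 763). Ccl20, which acts on Ccr6, was found almost only in T22 cells (316 against 1 UMI, a ratio of 806 with an interval of 144 to 31919). Its T22 pools ran from 0.704 to 25.9 CPM. In Malign_3, 34 of 907 cells had a Ccl20 UMI, with 29.9% of the UMIs in 1 cell. Cx3cl1 stood at 51.1 against 13.5 CPM, Cxcl16 at 47.5 against 4.62 CPM, Ccl17 at 40.1 (30.4 to 48.9) against 1.36 CPM, Cxcl14 at 8.14 against 1.10 CPM, Ccl9 at 7.81 against 1.80 CPM and Ccl28 at 1.60 against 0.0998 CPM. In the other direction, Cxcl1 stood at 431 CPM in T127 cells (233, 405 and 590) against 95.4 CPM in T22 cells (45.2, 88.7 and 180), a ratio of 4.52 (interval 4.37 to 4.67), and Cxcl5 at 15.0 against 0.204 CPM. Ppbp had 47 UMIs in T127 cells and 0 in T22 cells, which makes it at least 6.15-fold higher by the limit of 3 counts over the group. These 3 ligands act on Cxcr2. Of the others grouped with them, Cxcl2 (127.3 against 204 CPM) and Cxcl3 (10.8 against 31.3 CPM) were not called (T22 cells held 48.6 CPM of Cxcl3 in pool 3 and 0.779 to 10.2 CPM in the others, against 15.7 to 57.9 CPM in T127 cells), and Cxcl15 was found more in T22 cells (104 UMIs, 2.65 CPM, against 15 UMIs, 0.150 CPM), with pools overlapping. Ccl2 (10.5 against 77.6 CPM) was higher in T127 cells in 8 of 8 pools and Ccl7 (28.3 against 126 CPM) in 7 of 8, but the ranges over pools overlapped, and the number called higher in T127 was 4 without pool 3, 4 without pool 7 and 5 without pool 8. With both lines set against each other within each pool, asking for the same direction in every pool and a 2-fold ratio, 10 ligands were higher in T22 cells (against 22.7% of all genes) and 4 in T127 cells (against 18.8%), the added ones being Ccl6 (26.0 against 6.81 CPM) and Cxcl10 (53.5 against 9.28 CPM) in T22 and Ccl2 in T127.

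**Figure D3:**
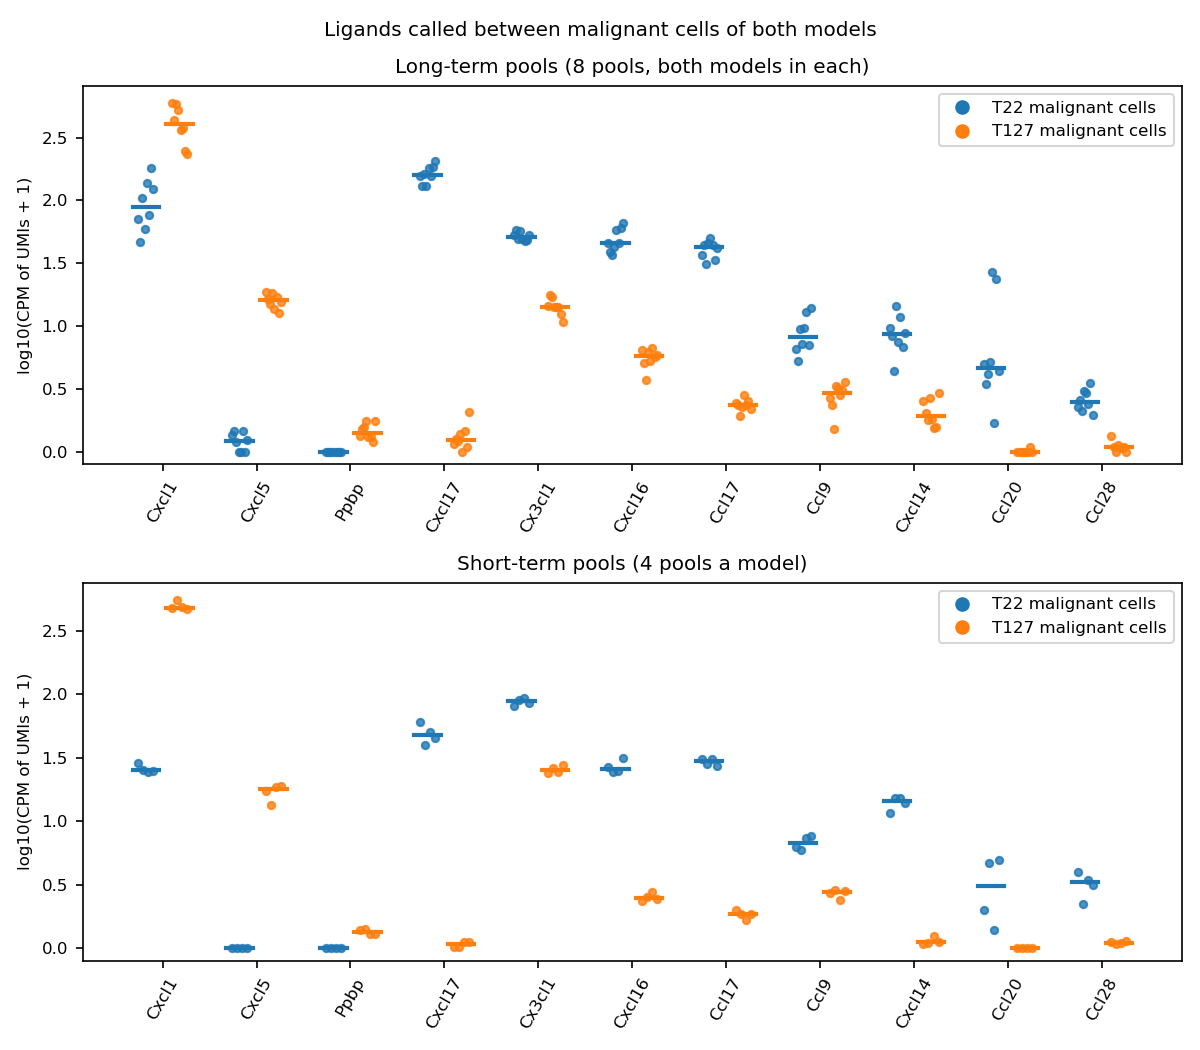
Level of the 11 ligands called between malignant cells of T22 and T127 in the long-term pools (top) and the same ligands in the short-term pools (bottom), as log10 of CPM plus 1, with 1 point per pool and lines at the median over pools. Cxcl1, Cxcl5 and Ppbp are higher in T127 and the other 8 ligands in T22, in both rows.

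In the short-term pools, where line and pool cannot be told apart, 13 of 28 ligands were higher in T22 malignant cells (against 26.4% of all genes) and 7 in T127 malignant cells (against 21.8%), with a median log2 ratio of 0.98 over the ligands and 0.02 over all genes. All 8 and all 3 ligands called in the long-term pools were called in the same direction here. Cxcl1 stood at 497 CPM in T127 cells (475, 554, 489 and 473) against 25.0 CPM in T22 cells (27.9, 24.2, 23.5 and 24.0). Cxcl2 stood at 190 against 15.0 CPM, Cxcl3 had 6224 against 1 UMI (a ratio of 1873, interval 336 to 74010), and Cxcl5 had 2822 UMIs (16.0 CPM) against 0, so that Cxcl5 was at least 283-fold higher. All 5 of the Cxcr2 ligands tested were therefore higher in T127 cells. Ccl2 (28.8 against 12.1 CPM) and Pf4 (1.72 against 0.415 CPM) were also higher in T127. In the long-term pools Pf4 was not called (3.88 CPM in T127 against 4.07 CPM in T22 cells, higher in T22 in 5 of 8 pools). Short-term Macro-M2 held Pf4 at 1942 CPM in T127 and 135 CPM in T22. Ppbp stood at 0.347 CPM in T127 malignant cells and 113 CPM in T127 Macro-M2. The part of phagocyte RNA in the Pf4 and Ppbp differences was not tested. The T22 side added Xcl1, Ccl4, Ccl5, Cxcl9 and Cxcl10, the last at 42.4 CPM (36.5, 54.8, 34.5 and 43.5) against 5.70 CPM (3.15, 9.94, 3.14 and 6.94). Summed NK markers were 7.40 CPM in Malign_2 and 13.0 CPM in Malign_3 of the T22 set, with none of the 4 markers at 0, against 0.840 CPM in Malign_0 and 0.477 CPM in Malign_1 of the T127 set, with 0 and 1 at 0. The part of NK-cell RNA in the Xcl1, Ccl4 and Ccl5 differences was not tested.

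Within each line, ligand levels differed between the 2 malignant clusters. In T22 long-term cells, 3 of 26 ligands were higher in Malign_3 (against 7.67% of all genes) and 4 in Malign_2 (against 8.92%). Cxcl17 (389 against 6.67 CPM), Cxcl1 (222 against 10.5 CPM) and Cxcl16 (96.5 against 14.7 CPM) were higher in Malign_3, the cluster with the higher epithelial markers (7915 against 1303 CPM summed over Epcam, Krt8, Krt18 and Cdh1). Cx3cl1 (66.2 against 28.7 CPM), Ccl17 (55.5 against 17.2 CPM), Cxcl14 (12.7 against 1.33 CPM) and Ccl2 (14.0 against 5.26 CPM) were higher in Malign_2. Cxcl1 was thus not restricted to T127 tumors but carried by a subset in each line. In T127 long-term cells, Cxcl1 (1026 CPM in Malign_1, pools 790 to 1274, against 43.9 CPM in Malign_0, pools 14.7 to 71.9) and Cxcl2 (465 against 34.6 CPM) were the 2 called of 27 tested (against 0.922% of all genes higher in Malign_1). None was higher in Malign_0 (against 0.488%). Cxcl3 (46.6 against 21.3 CPM) was not called because the pools overlapped, and leaving out pool 8 raised the count to 4. The count was also 4 with the same direction asked of every pool (against 1.22% of all genes, and 0 against 1.23% for Malign_0), adding Ccl2 (154 against 27.8 CPM) and Ccl7 (244 against 48.5 CPM).

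Macrophage clusters differed in the long-term pools mainly through ligands higher in Macro-M2, the cluster of macrophages with the study's M2 label. In Macro-M2, 7 of 27 ligands were higher than in Macro-M1 (against 1.95% of all 12009 genes) and 0 were lower (against 0.05%). These were the monocyte attractants Ccl2 (653 against 145 CPM) and Ccl7 (533 against 62.1 CPM), Ccl6 (2003, pools 1538 to 2867, against 584, pools 234 to 1193), Ccl9 (301 against 131 CPM), Ccl8 (1079, pools 536 to 1649, against 112, pools 8.98 to 308), Pf4 (1139 against 175 CPM) and Cxcl13 (2301 UMIs against 3). Their ratios ran from 2.30 for Ccl9 to 9.60 for Ccl8, apart from Cxcl13 at 220 (interval 75.0 to 1066). Cxcl16 was 1.47 times higher in Macro-M1 (783 against 532 CPM), with pool ranges apart but below the 2-fold limit. Cxcl9 (159 against 124 CPM) and Cxcl10 (522 against 391 CPM) were not called. Left without pools 1, 2 and 3, the number higher in Macro-M2 was 8. These pools mix both lines, and line and cluster cannot be told apart here, also within a pool. The short-term T127 set held 3 Macro-M1 and 1174 Macro-M2 cells, and the T22 set 1203 and 670. All the ligands called here but Cxcl13 were also called higher in T127 than in T22 Macro-M2 of the short-term sets. The part of line in this comparison was not tested.

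In the T22 pools, 7 of 24 ligands were higher in Macro-M2 (against 1.3% of all genes) and 1 in Macro-M1 (against 1.83%). Ccl6 (391 against 139 CPM) and Ccl2 (401, pools 298 to 440, against 98.3, pools 73.8 to 126.7) were called as in the long-term set. Ccl7 (121 against 18.8 CPM) and Ccl8 (43.4 against 3.71 CPM), called long-term, were higher in Macro-M2 in 4 of 4 T22 pools, but the pool ranges overlapped. Ccl12 (173 against 51.2 CPM), Cxcl9 (217 against 58.3 CPM), Cxcl10 (344 against 134 CPM), Ccl24 (52 against 3 UMIs, a ratio of 33.4 with an interval of 10.8 to 167) and Cxcl2 (3195 against 1586 CPM) were called in T22. Long-term Ccl12 was just under the limit (721 against 366 CPM, 1.97 times, higher in Macro-M2 in 8 of 8 pools), and the difference between the experiments was not tested. The Cxcl2 ratio of 2.01 lies at the 2-fold limit and fell below it without pool 1, without pool 2 and in 3 other settings, and Ccl24 lost its call without pool 3. Ccl22 was higher in Macro-M1 (33.3 against 9.33 CPM), and 38 of the 92 cells that passed the mature dendritic cell genes carried the Macro-M1 label in T22. Leaving out pool 1, 2 or 3 gave 2, 2 and 3 ligands higher in Macro-M1. Ccl3 and Ccl4 pointed to opposite clusters in the 2 experiments: in the long-term pools they were higher in Macro-M1 (548 against 333 CPM and 2263 against 1379 CPM, in 8 of 8 pools each), and in T22 higher in Macro-M2 (872 against 515 CPM and 2534 against 1364 CPM, in 4 of 4 pools each). T127 had 3 cells named Macro-M1 and could not be compared.

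**Figure D4:**
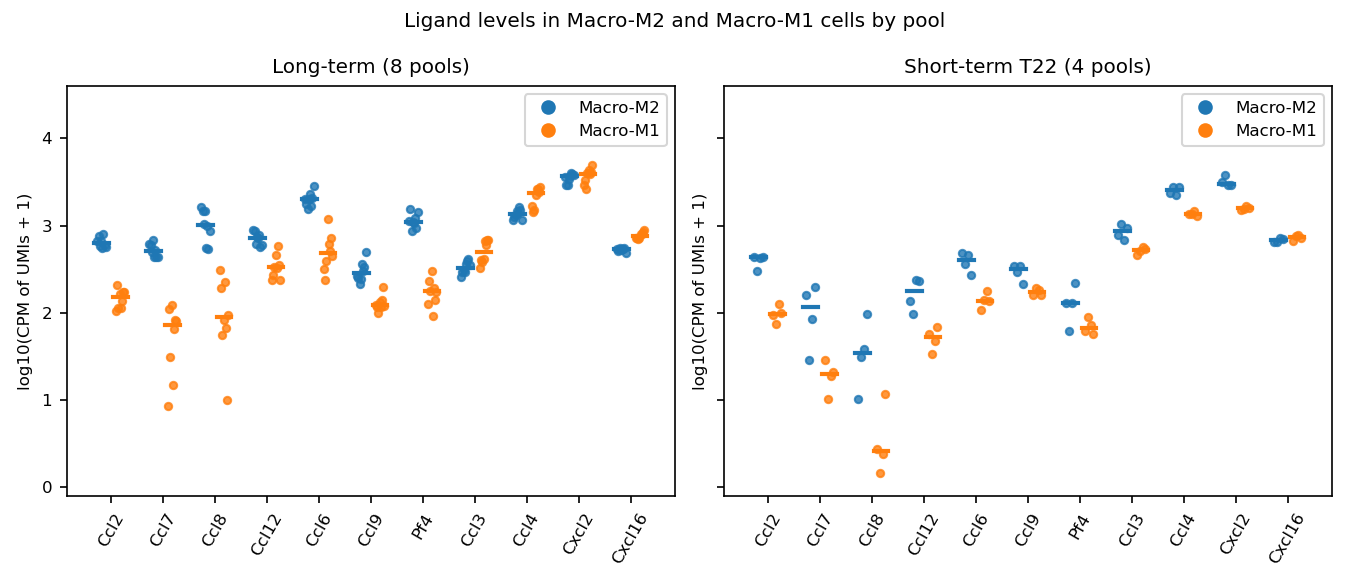
Level of 11 ligands in Macro-M2 and Macro-M1 by pool, in the long-term and the T22 pools, as log10 of CPM plus 1, with lines at the median over pools. Ccl2 and Ccl6 are higher in Macro-M2 in both experiments, while Ccl3 and Ccl4 are higher in Macro-M1 in the long-term pools and in Macro-M2 in the T22 pools.

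The clusters i_CAF and my_CAF differed too. In the long-term pools, 9 of 23 ligands were higher in i_CAF than in my_CAF, the cluster that carried the pericyte gene Rgs5 (against 10.4% of all 10761 genes), and 0 were higher in my_CAF (against 4.11%). Ccl7 (1260 against 26.9 CPM), Cxcl14 (915 against 39.1 CPM), Ccl8 (193 against 17.5 CPM) and Ccl2 (1022 against 112 CPM) differed by 9.14 to 46.8 times, and Cxcl1 by 4.01 times (1038, pools 653 to 1344, against 259, pools 19.0 to 602). Cxcl16 (62.5 against 9.43 CPM) and Cxcl12 (24.6 against 4.04 CPM, on 261 and 3 UMIs, a ratio of 6.10 with an interval of 2.06 to 29.8) were also called. Cxcl5 and Ccl17 had 707 and 195 UMIs in i_CAF and 0 in my_CAF, which makes them at least 16.5-fold and 4.56-fold higher. Ccl11 was carried by both (616 against 432 CPM, pools 459 to 859 and 161 to 810) and was not called. The my_CAF cluster held only 117 cells, and without pool 7 the number higher in it was 1. Line and cluster cannot be told apart in these mixed pools. The short-term T127 set held 8 my_CAF and 95 i_CAF cells, and the T22 set 129 and 291. Of the ligands called here, Ccl7, Cxcl1 and Cxcl5 were also called higher in T127 than in T22 i_CAF of the short-term sets, and the others were not. The part of line was not tested. Within the 6 pools that held both clusters, with the same direction asked of every pool, 15 ligands were higher in i_CAF (against 12.8% of all genes) and 0 in my_CAF (against 5.21%). The 6 added were Ccl5, Cxcl2, Cxcl3, Cxcl9, Cxcl10 and Cxcl13, of which Cxcl3 and Cxcl13 rested on 1 UMI each in my_CAF.

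The non-malignant clusters of the tumor lines were compared in the short-term pools, where line and pool cannot be told apart. Over the 10 clusters with 50 cells or more in both, 174 pairs of ligand and cluster were tested, 24 were higher in T22 (against 6.62% of all pairs of gene and cluster) and 54 were higher in T127 (against 5.86%). The T127 side was led by Ccl9 and Ccl17 (each in 6 of 7 clusters), Ccl6 (5 of 6), Cxcl3 (5 of 5), Pf4 and Ccl7 (4 of 7) and Cxcl1 (4 of 9). The T22 side was led by Ccl3 (6 of 9), Cxcl14 (5 of 8) and Ccl4 (4 of 9). Pairs of the same ligand are not independent, since RNA free in a capture can reach every cluster. In Macro-M2, 9 of 25 ligands were higher in T127 (against 7.91% of all genes in that cluster) and 3 in T22 (against 7.17%). Pf4 was 14.4 times higher in T127 (1942, pools 1641 to 2166, against 135, pools 61.5 to 217), Cxcl3 56.8 times (493 against 8.68 CPM), Ccl17 18.6 times (322 against 17.4 CPM) and Ppbp 172 times (1609 against 6 UMIs). Smaller ratios were found for Ccl7 (764 against 121 CPM), Ccl8 (235 against 43.4 CPM), Ccl9 (1165 against 295 CPM), Ccl2 (1260 against 401 CPM) and Ccl6 (1111 against 391 CPM). In contrast, Ccl4 (2534 against 550 CPM), Cxcl14 (108 against 24.4 CPM) and Ccl3 (872 against 241 CPM) were higher in T22. Markers named for other cells were summed in Macro-M2, with 0 of 4 epithelial and 0 of 4 fibroblast markers at 0. The epithelial sum was 72.0 CPM in T22 (63.0 to 90.9 over pools) and 298 CPM in T127 (261 to 314). The fibroblast sum was 27.7 CPM (24.3 to 30.6) and 43.0 CPM (36.0 to 49.8). These sums are not specific in T127: Epcam was highest in CD14-IL1B (636 CPM), Cdh1 in Macro-MKI67 (247 CPM), and Malign_1 held Dcn at 3674 CPM. Neutrophil markers summed to 23.4 CPM (14.2 to 44.0) and 186 CPM (68.5 to 377), with 1 of 6 at 0 in each. Their part in these results was not tested.

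**Figure D5:**
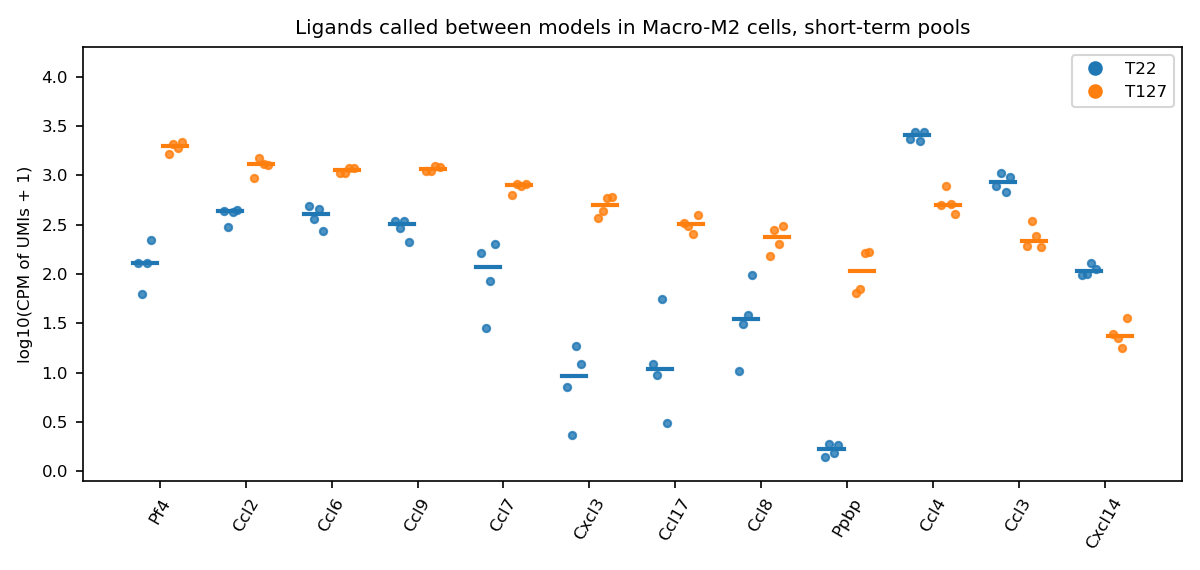
Level of the 12 ligands called in Macro-M2 between the short-term T22 and T127 pools, as log10 of CPM plus 1, with 1 point per pool and lines at the median over pools. Pf4, Ppbp, Cxcl3 and Ccl17 stand furthest apart, all higher in T127, while Ccl3, Ccl4 and Cxcl14 are higher in T22.

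NK cells and fibroblasts of the lines differed in other ligands. In NK cells, 6 of 9 ligands were higher in T22 (against 6.59% of all genes in that cluster) and 0 in T127 (against 2.26%). Ccl5 stood at 3581 CPM (3021 to 3866) against 795 CPM (509 to 1474), Ccl4 at 785 CPM (688 to 940) against 41.0 CPM (16.7 to 75.1), Ccl3 at 137 against 16.0 CPM and Cxcl10 at 199 against 53.0 CPM. Ccl1 (832 UMIs) and Cxcl16 (58 UMIs) were at 0 in the T127 NK cells, which makes them at least 29.9-fold and at least 2.09-fold higher in T22 by the limit of 3 counts over the group. Cxcl16 in T22 NK cells was low (6.25 CPM, against 692 CPM in mononuclear phagocytes), and the 6 phagocyte markers summed to 71.5 CPM in T22 NK cells (58.8 to 85.8 over pools, 0 of 6 at 0) and 74.9 CPM in T127 NK cells (63.1 to 87.5, 1 of 6 at 0). These markers were Itgam, Adgre1, Csf1r, Cd68, Cd14 and Fcgr3, and whether NK cells carry some of them themselves was not tested. Nor was the part of phagocyte RNA in the Cxcl16 difference. Xcl1, the leading NK ligand, was not called (1906 against 1487 CPM, pools 1779 to 2091 and 1155 to 2124). In i_CAF, 5 of 20 ligands were higher in T127 (against 3.91%) and 0 in T22 (against 8.83%), namely Cxcl1 (1638 against 604 CPM), Ccl7 (1020 against 307 CPM), Cxcl2 (327 against 55.3 CPM), Cxcl5 (166 against 6.06 CPM) and Ccl9 (32.2 against 3.95 CPM). Ccl11 and Cxcl14 of i_CAF differed by at most 1.41 times between the lines. In endothelial cells, 0 of 4 ligands were called (against 2.42% and 1.95%).

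The receptors of these ligands were ranked by the same rule. Xcr1 was led by CD14-IL1B in each experiment. Ccr1 was led by Macro-M2 (320, 331 and 438 CPM), with Macro-others close long-term and in T22 (302 and 328 CPM). Macro-M2 also led Ccl6, a ligand of Ccr1, in the long-term and T127 sets. Cxcr2, through which Cxcl1, Cxcl2 and Cxcl5 act, was scarce, with 121 UMIs long-term (highest in CD14-IL1B, 4.80 CPM), 14 in T22 and 77 in T127 (highest in CD14-PF4, 13.7 CPM). The paper reports no Fut4 or Cd177 in its data and proposes that neutrophils were not captured, probably because they are fragile. In T22, however, CD14-PF4 held the neutrophil genes S100a8 at 1586 CPM and Retnlg at 350 CPM, against 15.9 and 0.799 CPM in the next cluster. Other clusters led these genes in the long-term set. Whether some neutrophils were captured was not tested, and the scarcity of Cxcr2 need not hold for the tumors. Cxcr6, the receptor for Cxcl16, was led by Tgd cells long-term (1160 CPM) and in T22 (853 CPM) and by CD4_Treg-FOXP3 in T127 (380 CPM). Cxcr3 was led by pDC long-term (179 CPM) and in T127 (131 CPM), and by CD8_Tn-CCR7 in T22 (101 CPM). Ccr9 marked pDC (1159 and 1767 CPM in long-term and T127 cells), Ccr8 was led by CD4_Treg-FOXP3 in the same sets (89.7 and 84.6 CPM), and Cxcr5 by B cells long-term (98.8 CPM). Ccr7 was led by B cells long-term, by CD14-PF4 in T22 and by CD4_Tcm-TCF7 in T127 (409, 456 and 463 CPM), while its ligands Ccl19, Ccl21a, Ccl21b and Ccl21c had no UMI. Ackr3, the scavenger receptor for Cxcl12, was led by i_CAF and followed by endothelial cells in each experiment (198, 65.3 and 247 CPM in i_CAF).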

How the data were processed

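Tumors were dissociated, labelled with multiplexing oligonucleotides, pooled and captured with 10x Genomics 3′ v3.1 chemistry. Per the submitters' processing notes, Cell Ranger 6.0.0 and GRCm38 were used, and the study's methods state that intronic reads were counted. The authors deposited raw UMI counts per cell and gene for each pool, after removing low-quality cells and predicted doublets (Scrublet), and the cluster name of each cell. No doublet caller was run here. The raw counts were summed per cluster and pool and divided by the summed UMIs of the same cells, times 1000000, with Python 3.11.15, NumPy 2.4.6, SciPy 1.17.1 and pandas 2.3.3, and plotted with matplotlib 3.10.9.

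In the long-term pools, a barcode found in several pools was kept once, at its deepest copy. Clusters of at least 50 cells and ligands of at least 30 UMIs were ranked, and genes of at least 30 UMIs over both groups were compared. A call needed a ratio of at least 2 and pool ranges apart. Intervals are exact at 95%. The limit of a count of 0 is 3 counts over the group. The calling steps were tested on simulated data. No test across pools was run, since treatments are mixed within pools, and pools of a set are captures that may share tumors.

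The members, gene lists and comparisons were chosen with earlier results of these data known. Values by pool are given for up to 3 ligands per receptor group with the most long-term UMIs, up to 8 ligands whose main source differed between experiments and up to 8 called ligands per comparison, by UMIs, and values of other members were added after they were seen. A further 3 comparisons (Macro-M2 against Macro-M1 in T22, Malign_3 against Malign_2, Malign_1 against Malign_0) and 3 alternatives (without long-term pools 1, 2 and 3, only cells of at least 3000 UMIs, and pairing within pools) were chosen after seeing the data. The reference here was human, so no mouse sequence or position is given.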

Additional observations from a re-analysis of the deposited data

Results flagged for a closer look

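In 7 of 87 sets of pools, 1 pool of a main source stood apart from the others by Dixon's criterion, which flags about 1 in 20 sets by chance. In the long-term pools these were Cxcl12 in endothelial cells (1487 CPM in pool 3, the nearest pool at 808 CPM), Cxcl5 in i_CAF (206 CPM in pool 4, the nearest at 94.7 CPM) and Ccl25 in CD4_Treg-FOXP3 (17.3 CPM in 1 pool and 0 in the others). In T22 they were Cxcl13 in CD16-CDKN1C (37.7 CPM in pool 4, the nearest at 6.63 CPM) and Ccl4 in Macro-others (3522 CPM in pool 4, the nearest at 3290 CPM). In T127 they were Cx3cl1 in i_CAF (21.8 CPM in pool 1, the nearest at 47.1 CPM) and Ccl25 in CD4_Tcm-TCF7 (7.11 CPM in pool 1 and 0 in the others).

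Ccl4 and Ccl3 differed between Macro-M2 and Macro-M1 in opposite directions in the long-term and T22 pools. In the long-term pools Macro-M2 held 1379 CPM of Ccl4 and 333 CPM of Ccl3, below Macro-M1 in 8 of 8 pools, and in T22 it was above Macro-M1 in 4 of 4 pools. This difference between the experiments was not tested.

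A gene column outside the naming rule, Ccl27a-2, carried 4467 UMIs in the long-term pools, highest in Malign_2 at 57.4 CPM, while Ccl27a and Ccl27b were at 0.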

How the results depend on the processing

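No ratio of a called ligand changed direction, and no clear main source fell below another cluster, under the alternatives tried. Leads that were not clear were not counted as reversed, and some passed to another cluster. Macro-M2 kept the long-term lead in Ccl9 in 9 of 15 settings and i_CAF that in Cxcl1 in 10 of 15. In T127, Macro-M2 kept the lead in Ccl3 in 5 of 9. Of 1615 single-ligand values 1536 stayed on the same side or within the spread between pools, 73 moved and 6 lost their call (5 of them Cxcl2 and 1 Ccl24, Macro-M2 against Macro-M1 in T22). Over the settings that changed cells, pools or the denominator (15 long-term, 9 each in T22 and T127), the main source stayed the same in each for 23 of 33 long-term, 19 of 32 T22 and 21 of 28 T127 ligands. Other definitions of the source kept fewer, as given below. Where each pool held both groups, they were also paired within pools (a replicate block chosen after seeing the data, asking for the same direction in every pool in place of separate ranges), which gave 15 ligands higher in i_CAF and 4 in Malign_1 and left the other counts within 1.5 times. The short-term comparisons of T22 with T127 cannot be paired, since their pools are separate captures.

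Taking as source the cluster with the most UMIs kept the source of 17, 18 and 14 ligands (long-term, T22, T127) and left 2 in i_CAF long-term and 2 in T127. With clusters of at least 200 cells, 14 T127 sources stayed and 0 were in i_CAF. With clusters merged into classes, sources matched for 25 ligands between long-term and T22, 23 between long-term and T127 and 19 in all 3. Without the condition on pool ranges, calls were 17 and 6 for T22 against T127 malignant cells long-term, 12 higher in Macro-M2 long-term, 18 and 1 for i_CAF against my_CAF, 4 higher in Macro-M1 in T22, 9 and 8 for Malign_3 against Malign_2, 7 and 1 for Malign_1 against Malign_0, and 43 higher in T22 within non-malignant clusters. In all, 1 ligand was higher in my_CAF with cells of at least 1000 genes or 3000 UMIs. In T22 Macro-M2, a 1.5-fold limit gave 11 calls and a 4-fold limit 2, with 0 in Macro-M1, and a 4-fold limit left 1 higher in Malign_2. Leaving out each pool in turn gave 3 to 5 ligands higher in T127 malignant cells long-term, 0 to 1 higher in my_CAF, 1 to 3 higher in T22 Macro-M1 and 2 to 4 higher in Malign_1. Shares in T22 cells passing the mature dendritic cell genes fell to 16.8% (3 genes) and 30.3% (thinned) for Ccl17 and to 45.1% (3 genes) for Ccl22. The causes were not tested, beyond the fewer cells or clusters each alternative leaves.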
